A study of Arabidopsis thaliana with 8 samples.

Results

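The PCMP genes encode plant combinatorial and modular proteins, a branch of the pentatricopeptide repeat (PPR) family. They were taken as every locus of the deposited expression table whose gene name begins with PCMP, and the letter after the hyphen gave the class. This rule found 51 genes among the 9536 loci with values, 3 of class A, 29 of class E and 19 of class H. Of these, 44 lie on chromosome 1 and 7 on chromosome 2, because the analysed table covers chromosome 1 and only an initial stretch of chromosome 2. The RefSeq description of 25 of them names a pentatricopeptide protein, 25 others are described as tetratricopeptide repeat-like, and RefSeq notes for 48 of the 51 mention a PPR domain.

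RNA from whole Arabidopsis thaliana seedlings of 4 genotypes was sequenced in 8 libraries, 2 per genotype. Col0 was the wild type. The sr45 line carried a T-DNA insertion in SR45, the sap18sr45 line carried insertions in SAP18 and SR45, and the asap line, derived from crosses and homozygous for its insertions, carried them in SAP18, SR45 and ACINUS. The 3 mutated genes encode the ASAP complex, a nuclear complex that accompanies messenger RNA through splicing. All seedlings were of the Col0 ecotype and grew on MS medium for 11 days at 22 °C with 16 h of light and 8 h of dark. Nothing in the labels tells if the 2 libraries per genotype are of separate cultures, and every p-value therefore measures the spread between these libraries only.

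PPR genes lie in the nucleus, and their proteins are made in the cytosol and imported into chloroplasts and mitochondria. There each binds a stretch of organellar RNA through a row of short helical repeats, in which each repeat reads a base, and so guides editing, splicing, cleavage or stability of that RNA. The modular branch, also called the PLS class, is known above all for C-to-U editing of organellar transcripts. In classes E and H the C terminus carries an E domain, and in class H also a DYW domain, named after the amino acids aspartate, tyrosine and tryptophan at its very end, which resembles a cytidine deaminase. Loss of single editing factors commonly impairs a chloroplast or mitochondrial protein, for example a subunit of the NDH complex of photosynthetic electron flow.

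The class letters could be seen in the gene sequences. The coding ends below are shown because they carry the feature that divides classes H and E. They were read from the RefSeq genome TAIR10.1 at RefSeq's own annotation, matched to the table by locus identifier. Each is the last 30 bases of the longest annotated coding sequence, 5′ to 3′ on the coding strand, with the last 3 codons before the stop codon in capitals.
PCMP-H11 (AT1G31920): ggaacttgttcttgtaaaGATTATTGGtag
PCMP-H12 (AT1G08070): ggtgtttgttcctgcaatGACTACTGGtag
PCMP-H40 (AT1G11290): ggtgcctgttcgtgcggaGATTACTGGtga
PCMP-H26 (AT2G02980): ggaaaatgttcttgtgggGATTTTTGGtga
PCMP-H73 (AT1G15510): aaagatggagaatgttcaTGTGGAGATtag
PCMP-E22 (AT2G02750): aaacttccaggtcttagtTTGTCTGGTtaa
PCMP-E25 (AT1G09220): aaacttccaggacattcaCAAGTAACAtag
PCMP-A3 (AT1G71460): atgagttcctcgtcatccCTACAGACCtga

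Codons for aspartate, tyrosine and tryptophan ended 11 of the 19 class H genes, among them PCMP-H11, PCMP-H12 and PCMP-H40, and 0 of the 29 class E and 0 of the 3 class A genes. Among all 7597 protein-coding loci with values the share was 0.184%. A final tryptophan codon (TGG) was found in 18 of 19 class H genes, PCMP-H26 included, where the middle codon is TTT. The exception was PCMP-H73. The other 18 class H genes hold a pair of cysteine codons, separated by 1 codon, at the same distance from the stop, and in PCMP-H73 such a pair stands 2 codons closer to it. Since the PCMP classes were named for such motifs, these shares describe the naming and not the samples.

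Gene structure, which the name does not use, set the group apart from most loci. A single exon made up 42 of the 51 genes (82.4%), against 19.4% of the protein-coding loci and 55.9% of 68 other loci whose RefSeq product names a PPR protein. Median protein length was 638 residues, with 611 in class E and 704 in class H, against 354 over the protein-coding loci. The 300 bases around the annotated gene start (250 before, 50 after) were searched on both strands for known promoter motifs. These were the site II elements TGGGCC and TGGGCT, which differ only in the last base, and the telo box AAACCCTA. They are known from promoters of genes for organelle and ribosomal proteins. A site II element was present in 11 of 51 PCMP windows (21.6%), close to the 21.3% of all windows, and the telo box in 4 (7.84%, against 5.74%). The other PPR loci held them in 33.8% and 20.6%. These are matches of letters only.

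The libraries held between 1295244 counts (sr45 replicate 1) and 4052420 counts (Col0 replicate 1) over the loci used, so 3 counts correspond to between 0.74 and 2.316 CPM (counts relative to library size). SR45 (AT1G16610), the gene mutated in all 3 lines, was at 24.2 and 21 cRPKM in Col0, 6.62 and 4.99 in sr45, 13.6 and 14.4 in sap18sr45 and 6.23 and 3.85 in asap. It was therefore lower than in Col0 in every mutant library, least so in sap18sr45. The unit cRPKM is the count per kilobase of mappable gene sequence, scaled to the mapped reads of the library, so it permits comparison between genes. SAP18 and ACINUS were not analysed here. Markers of root moved strongly with genotype. The 5 root genes summed to 3.88 and 3.64 cRPKM in Col0, 7.13 and 6.16 in sr45, 14.4 and 12.3 in sap18sr45 and 58.4 and 51.1 in asap. Of these, 1 rose in sr45, 3 in sap18sr45 and all 5 in asap. Much of the root sum in asap is PER3, with means of 2.3 cRPKM in Col0 and 36.6 in asap. Of 6 leaf genes, 4 fell and 1 rose in asap, with a sum of 54509 and 54572 cRPKM against 52299 and 54333 in Col0. Much of that sum is RBCS-1A, with means of 17732 cRPKM in Col0 and 24147 in asap. Over all genes tested, 26.0% fell and 25.6% rose in asap. The floral gene AP1 had 1 count in 1 library and none in the other 7, and the seed oleosin locus likewise, while SEP3, the other floral gene, was not called in any mutant. Whether these marker differences reflect tissue make-up, and their part in the results below, was not tested. In bulk RNA fewer cells of a type and less RNA per cell cannot be told apart.

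PCMP transcripts were scarce. The median member had a mean level of 0.56 cRPKM over the 8 libraries, against 1.66 over all loci with values, and 33 of the 51 were under 1 cRPKM. The class medians were 2.59 cRPKM in A, 0.52 in E and 0.60 in H, with 2.36 for the other PPR loci. Only PCMP-H11 (16.4 cRPKM) and PCMP-H8 (AT1G18485, 6.05 cRPKM) exceeded 5. PCMP-H11 alone supplied 22.2% of the 10384 counts assigned to the group, and the top 5 genes supplied 52.1%.

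**Figure D1:**
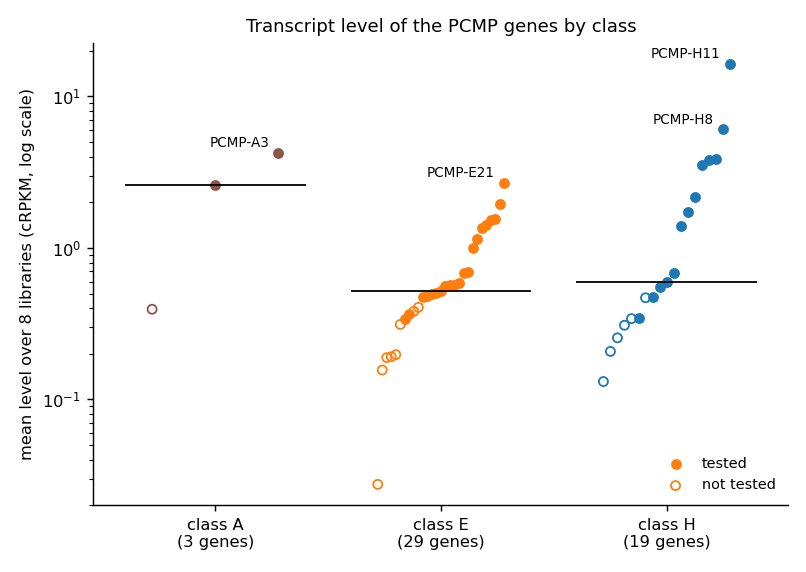
Mean level of each of the 51 PCMP genes over the 8 libraries (vertical axis, cRPKM, log scale) in classes A, E and H, with filled circles for the 36 genes tested, open circles for the 15 not tested and a line at the class median. PCMP-H11 at 16.4 cRPKM lies above all others, and 33 genes lie under 1 cRPKM.

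Below the top gene, class H also held PCMP-H67 (AT1G29710) at 3.84 cRPKM, PCMP-H26 at 3.80 and PCMP-H73 at 3.54. In class A, PCMP-A3 was at 4.24, PCMP-A1 (AT1G31790) at 2.59 and PCMP-A4 (AT1G14470) at 0.39 cRPKM. The highest class E genes were PCMP-E21 (AT1G77170) at 2.70, PCMP-E54 (AT1G26900) at 1.94 and PCMP-E71 (AT1G10330) at 1.56 cRPKM. Class E thus had no member among those above 3 cRPKM, the range occupied by 5 class H genes and 1 class A gene.

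A low-count filter applied to the whole table kept 36 members, 2 of class A, 21 of class E and 13 of class H. The 15 others never exceeded 18 counts in a library. The filter used all 8 libraries, so a gene low in 1 genotype could pass through the others. PCMP-E22 in sr45, and PCMP-E25 and PCMP-H12 in asap, were such cases, which favoured a fall there. Changes were tested with edgeR's quasi-likelihood test in 1 model over 5261 genes, and a gene is called, or said to rise or fall, where its adjusted p (Benjamini-Hochberg) is under 0.05. Standard errors (SE) of log2 changes had a median of 0.58 over the members in sr45 against 0.20 over all genes tested, so that only large changes of most members were detectable at this depth.

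In sr45, which asks what differs when SR45 alone is mutated, PCMP-A3 rose and PCMP-E22 fell, and these were the 2 calls among 36 members (5.56%). Over all genes 31.7% were called, 15.2% as higher and 16.5% as lower. Since 29 of the 36 had a mean log2 CPM under 4, a band chosen after the levels were seen, the 9.0% called among all 1167 genes in that band is the closer background, and 1 of the 29 was called. The median log2 change was 0.11 over the members and -0.01 over all genes, with 21 members above and 15 below 0. By class the median was -0.05 in E and 0.23 in H, and without a filter on low counts the median over all members was -0.035.

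PCMP-A3 had 2.68 and 2.5 cRPKM in Col0, 5.08 and 5.17 in sr45, 4.50 and 5.19 in sap18sr45 and 4.45 and 4.37 in asap. All 6 mutant libraries lay above both Col0 libraries, the sr45 and sap18sr45 libraries overlapped, and asap lay just below them. Set against Col0, its log2 change in sr45 was 0.97 ± 0.23 (SE, adjusted p = 0.00161). It was 0.83 ± 0.22 in the double mutant (adjusted p = 0.00449) and 0.60 ± 0.22 in asap (adjusted p = 0.0269). These 3 comparisons share the Col0 libraries. In order of mean level sr45 came first, then sap18sr45, asap and Col0, and neither step between neighbouring mutants was called (log2 changes -0.14 ± 0.22 and -0.23 ± 0.21, adjusted p = 0.845 and 0.431).

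The call in sr45 held without each single library. In sap18sr45 it was lost without Col0 replicate 1 (adjusted p = 0.0565), Col0 replicate 2 (0.0625) or sap18sr45 replicate 2 (0.0758), and in asap with DESeq2 (0.0748), voom with quantile normalization (0.106), only the 4 libraries compared (0.0510), or without Col0 replicate 1 (0.118), Col0 replicate 2 (0.142), sap18sr45 replicate 2 (0.0502) or asap replicate 2 (0.0568). PCMP-A3 overlaps an antisense gene, ERF021, over 3.09% of its length, and ERF021 was listed at 0 cRPKM in all libraries.

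PCMP-A1, the other tested class A gene, had 1.90 and 1.97 cRPKM in Col0, 3.45 and 3.59 in sr45, 3.04 and 2.55 in sap18sr45 and 2.21 and 2.04 in asap. The sr45 and sap18sr45 libraries lay above all Col0 and asap libraries, yet the change in sr45 was not called (log2 change 0.85 ± 0.38, adjusted p = 0.0864). It passed the threshold in 5 alternatives, among them limma fitted to log2 cRPKM, where the adjusted p was 0.0430 with a pseudocount of 0.5 and 0.0407 with 1. PCMP-A4, with at most 13 counts in a library, was not tested.

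PCMP-E22 had 1.15 and 0.73 cRPKM in Col0 from 35 and 15 counts, 0.21 and 0.18 in sr45 from 2 and 3 counts, 0.49 and 0.54 in sap18sr45 and 0.69 and 0.56 in asap. Its sr45 libraries were the lowest of the 8, and every mutant library lay below both Col0 libraries. In sr45 it fell with a log2 change of -2.33 ± 0.73 (SE, adjusted p = 0.0154), and the values of -0.96 ± 0.54 in sap18sr45 and -0.78 ± 0.55 in asap were not called (adjusted p = 0.209 and 0.241). The difference between sap18sr45 and sr45 was itself not called (log2 change 1.37 ± 0.80, adjusted p = 0.424). In sr45 the call was lost with DESeq2 (adjusted p = 0.0501) and without Col0 replicate 1 (0.210), sr45 replicate 1 (0.0639) or sr45 replicate 2 (0.144). PCMP-E22 overlaps the antisense gene WHY3, which rose in sr45 (log2 change 0.49, adjusted p = 0.0265), over 3.54% of its length. It also overlaps 2 loci not analysed here, antisense AT2G04295 over 33.7% of its length and same-strand AT2G02741 over 9.41%.

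**Figure D2:**
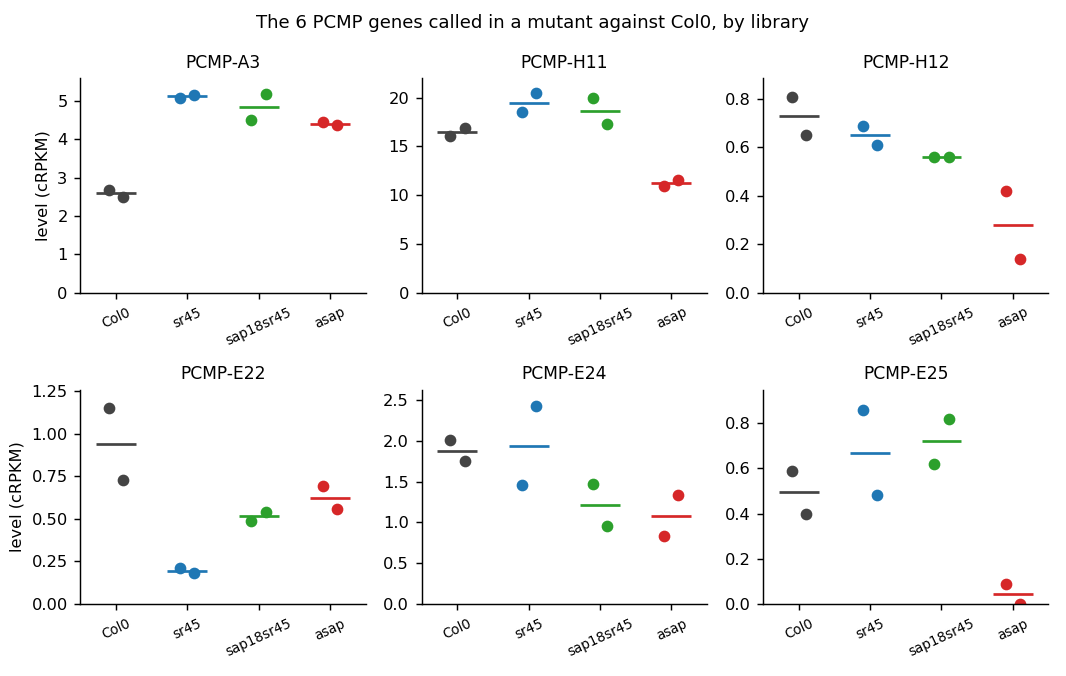
Level (cRPKM, linear axes from 0) of the 6 PCMP genes called in any mutant against Col0, with 1 point per library and a line at the mean of the 2 libraries of each genotype. PCMP-A3 is higher in all 6 mutant libraries, PCMP-H11 and PCMP-E25 are lowest in asap, and PCMP-E22 is lowest in sr45.

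In sap18sr45 the only call was the rise of PCMP-A3 (joined by PCMP-H73 when either asap library was left out of the model), 1 of 36 members (2.78%) against 27.1% of all genes (12.9% as higher) and, among members with a mean log2 CPM under 4, 0 of 29 (1 at an unadjusted p under 0.05) against 9.25% of all genes in that band. The median log2 change was 0.13 (all genes 0.01), with 24 members above 0, and was 0.09 in class E and 0.13 in class H. With voom these medians were below 0, at -0.082 over the members, -0.13 in class E and -0.13 in class H. PCMP-H21 (AT1G20230), named after its values were seen as 1 of the largest estimates, had 14 and 6 counts in Col0 and 34 and 13 in sap18sr45, and was not called (log2 change 1.25 ± 0.59, adjusted p = 0.122). PCMP-H73, known as VAC1 or ECB2 and needed for editing of accD and ndhF transcripts in chloroplasts, was at 3.06 and 2.06 cRPKM in Col0 and 3.51 and 4.41 in sap18sr45, and was likewise not called (0.53 ± 0.24, adjusted p = 0.104).

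The step from sr45 to sap18sr45 gave no call among the members by edgeR, with 0 of 36 also at an unadjusted p under 0.05 and 0 by DESeq2, limma and voom. Over all genes 5.61% were called. SR45 itself was higher in sap18sr45 than in sr45 (log2 change 1.26, adjusted p = 0.000234), so the lines differ in SR45 transcript as well. The estimates ran from -0.74 for PCMP-E24 (AT1G22830) to 1.41 for PCMP-E10 (AT1G62260), with a median of 0.10.

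In asap, with all 3 genes mutated, 5 of 36 members were called (13.9%), against 51.6% of all genes. Under a mean log2 CPM of 4, 3 of 29 members were called (10.3%) against 35.0% of all genes in the band. PCMP-H11, PCMP-H12, PCMP-E24 and PCMP-E25 fell, and PCMP-A3 rose, where 26.0% of all genes fell and 25.6% rose. The median log2 change was -0.14 (all genes 0.01), at -0.15 in both class E and class H, with 14 members above and 22 below 0, but 0.014 with limma on cRPKM at a pseudocount of 0.5, a scale on which the median of all genes was 0.14. The number called was 2 without either Col0 library, 3 without sap18sr45 replicate 2 and 10 without asap replicate 1, with PCMP-H11 among them each time. In TMM-scaled CPM, both asap libraries lay below both Col0 libraries for 11 members (30.6%) and above both for 5 (13.9%). The shares over all genes on that scale were 37.6% and 36.7%. The split depended on the scale. In cRPKM, PCMP-H40 and PCMP-E42 (AT1G50270), counted as below, overlapped Col0. PCMP-A1, PCMP-H68 (AT1G34160) and PCMP-H73 then lay above both Col0 libraries. Shares of all genes in cRPKM were not counted.

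PCMP-H11 had 16.0 and 16.9 cRPKM in Col0, 18.5 and 20.5 in sr45, 19.9 and 17.3 in sap18sr45 and 10.9 and 11.6 in asap. The asap libraries stood below the other 6 with no overlap. The log2 change was -0.71 ± 0.13 against Col0 (SE, adjusted p = 5.61e-05) and -0.84 ± 0.13 against sap18sr45 (adjusted p = 1.16e-05), from 150 to 498 counts per library, and both calls held without any single library. In sr45 and sap18sr45 it was not called (0.24 ± 0.13 and 0.13 ± 0.12, adjusted p = 0.163 and 0.473).

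All of the exon sequence of PCMP-H11 is overlapped by an antisense gene, AT1G31910, which was more abundant (mean 71.9 cRPKM). AT1G31910 rose in all 3 mutants, by 0.47 in sr45, 0.25 in sap18sr45 and 0.38 in asap on the log2 scale, so in asap the pair moved in opposite directions. The paper names a stranded mRNA library kit, but the strand setting of the counting is not stated in the sources read. If the strand was not used in counting, reads of the pair cannot be told apart.

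PCMP-E25 had 13 and 6 counts in Col0, 6 and 6 in sr45, 13 and 11 in sap18sr45 and 1 and 0 in asap. The asap libraries were the lowest of the 8. Summed over libraries and scaled, its asap level was 0.0672 of that in Col0 (95% counting interval 0.00162 to 0.422) and 0.0514 of that in sap18sr45 (0.00125 to 0.315). The fitted log2 changes were -3.58 ± 1.22 against Col0 (adjusted p = 0.0158) and -4.01 ± 1.17 against sap18sr45 (adjusted p = 0.00963). PCMP-E25 passed the low-count filter only through libraries of sr45 and sap18sr45, where it was higher. Its selection for testing thus favoured a fall in asap, which these p-values do not allow for. The first was lost with limma at either pseudocount (adjusted p = 0.0601 and 0.0925) and without Col0 replicate 1 (0.133) or asap replicate 2 (0.101), and the second without either sap18sr45 library (0.0557 and 0.0765) or asap replicate 2 (0.0635).

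PCMP-H12, known as OTP82 and required for editing of ndhB and ndhG transcripts in chloroplasts, had 26 and 14 counts in Col0, 7 and 11 in sr45, 17 and 11 in sap18sr45 and 7 and 3 in asap. In cRPKM these were 0.81 and 0.65, 0.69 and 0.61, 0.56 and 0.56, and 0.42 and 0.14, so the asap libraries were again the lowest. The log2 change in asap was -1.59 ± 0.66 (adjusted p = 0.0445), a call that 13 of 16 alternatives did not keep, among them DESeq2 (adjusted p = 0.104). It was lost without any 1 of the libraries except asap replicate 1, with adjusted p between 0.0571 and 0.252.

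PCMP-E24 had 2.01 and 1.75 cRPKM in Col0, 1.46 and 2.42 in sr45, 1.47 and 0.96 in sap18sr45 and 0.83 and 1.33 in asap. The asap and sap18sr45 libraries overlapped. It was called in asap (log2 change -0.94 ± 0.38, adjusted p = 0.0385) and not in sap18sr45 (-0.66 ± 0.36, adjusted p = 0.189). The asap call was lost without Col0 replicate 1 (adjusted p = 0.198), Col0 replicate 2 (0.0899) or asap replicate 1 (0.149), and with DESeq2 (0.106), limma at either pseudocount (0.152 and 0.149) or only the 4 libraries compared (0.0534).

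**Figure D3:**
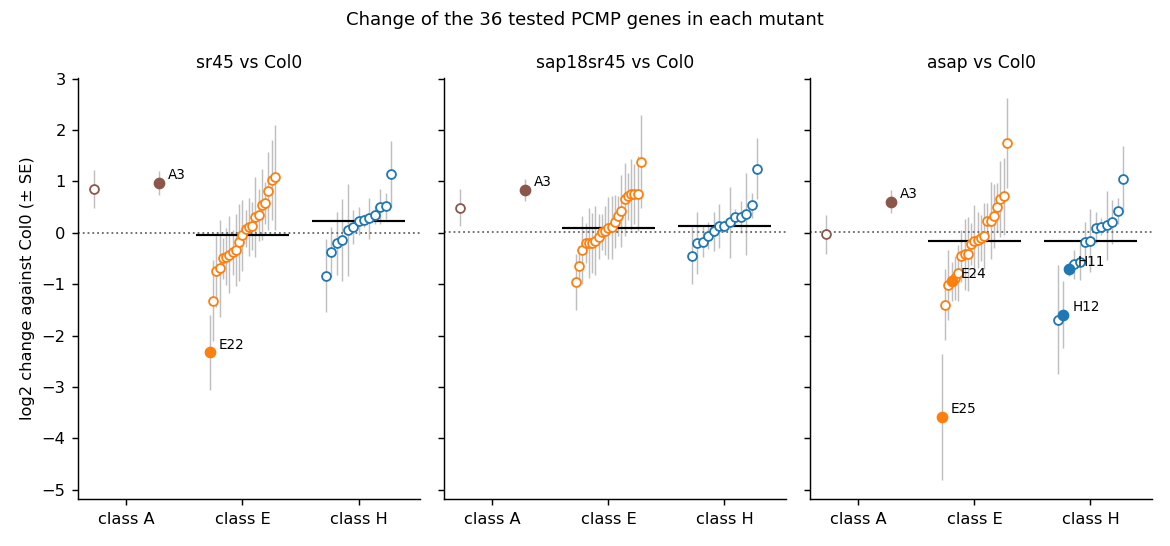
Log2 change against Col0 with its SE for the 36 tested PCMP genes in sr45, sap18sr45 and asap, ordered by size within classes A, E and H. Filled and labelled circles are called, open circles are not, solid lines are medians of classes E and H, and the dotted line is the median of all genes tested. Calls number 2, 1 and 5 in the 3 panels.

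Editing factors of known target made up a further part of the tested members. PCMP-H40, known as CRR22 and needed for sites in ndhB, ndhD and rpoB, had 1.70 and 2.30 cRPKM in Col0 and 1.90 and 1.14 in asap (log2 change -0.57 ± 0.35, adjusted p = 0.186). PCMP-H26, or OTP85, which acts on ndhD, had 4.17 and 3.44 cRPKM in Col0 and 3.0 and 2.64 in asap, below both Col0 libraries but not called (-0.61 ± 0.28, adjusted p = 0.0694). PCMP-H51 (AT1G59720), or CRR28, which acts on ndhB and ndhD, had 1.97 and 1.22 in Col0 and 1.85 and 1.37 in asap (-0.19 ± 0.39, adjusted p = 0.715). Some 21.3% of the exon sequence of PCMP-H51 is shared with the antisense gene AT1G59710. That gene had a mean of 18.6 cRPKM and fell in asap (log2 change -1.37). Of the 5 chloroplast editing factors described here, PCMP-H12 was therefore the only one called, and PCMP-H73 differed in sign from it in asap (0.42 ± 0.25, adjusted p = 0.153).

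The tested members of known mitochondrial role named here were all of class E. PCMP-E10, or MEF9, which edits nad7, had 0.73 and 0.57 cRPKM in Col0, 0.24 and 0.27 in sr45, 0.61 and 0.88 in sap18sr45 and 0.37 and 0.35 in asap. Its sr45 and asap libraries lay below all Col0 and sap18sr45 libraries, and no change was called (log2 change -1.32 ± 0.79 in sr45, adjusted p = 0.219, and -1.01 ± 0.69 in asap, adjusted p = 0.224). PCMP-E69 (AT1G74600), or OTP87, which edits nad7 and atp1, was called in no mutant, with log2 changes of 0.12, 0.21 and -0.14 in sr45, sap18sr45 and asap. PCMP-E76 (AT2G13600), the mitochondrial editing factor SLO2, had -0.05, 0.76 and 0.32, and PCMP-E64 (AT1G56570), the mitochondrial protein PGN of germination in salt and defence, had -0.19, -0.20 and -0.15; the SE of these 6 values were 0.58 or more. Some 33.0% of the exon sequence of PCMP-E64 is shared with the antisense gene SVB, which rose in all 3 mutants.

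The most abundant genes gave the tightest estimates. PCMP-H8 had 4.96 and 5.16 cRPKM in Col0 and between 6.09 and 6.93 in the 6 mutant libraries, all above Col0, and was not called in any mutant (log2 change 0.35 ± 0.17 in sr45, adjusted p = 0.132). With TMM scaling the difference in asap was 0.11 ± 0.17. PCMP-H67 ranged from 2.94 to 5.43 cRPKM over the libraries, with the lowest in sap18sr45 and the highest in asap, and its log2 changes were 0.11, -0.18 and 0.10. PCMP-E21, PCMP-E54 and PCMP-E71, the leading class E genes, were not called in any mutant, and their largest estimate was -0.88 ± 0.42 for PCMP-E54 in asap (adjusted p = 0.0841). PCMP-E21 was the only member with 50-base coding stretches found elsewhere in the genome (1.33% of its windows), so its reads can be shared.

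From sap18sr45 to asap, 2 of 36 members were called (5.56%), the falls of PCMP-H11 and PCMP-E25, against 32.1% of all genes (16.7% as lower). Under a mean log2 CPM of 4 it was 1 of 29 (3.45%), PCMP-E25, against 17.2% of all genes in the band. As given above, PCMP-E25 was tested only through libraries of sr45 and sap18sr45, which favoured a fall over this step. The median log2 change was -0.25, with 27 of 36 below 0, and 0.01 over all genes. In TMM-scaled CPM, both asap libraries were below both sap18sr45 libraries for 14 members (38.9%, all genes 31.7%). They were above both for 1 (2.78%, all genes 31.4%), PCMP-H74, which was named after its values were seen. In cRPKM, PCMP-E70 and PCMP-H26, counted as below, overlapped sap18sr45, and PCMP-E22 lay above it. PCMP-H40 came nearest to a further call (-0.87 ± 0.35, adjusted p = 0.0553). SR45 itself fell over this step (log2 change -1.60, adjusted p = 4.94e-07), so the lines differ in SR45 transcript as well as in ACINUS. Without asap replicate 1 the number called was 4, and without either sap18sr45 library it was 1, PCMP-H11.

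Summed over all 51 members, the level in TMM-scaled CPM was 477 and 467 in Col0, 522 and 561 in sr45, 526 and 535 in sap18sr45 and 381 and 407 in asap. Both sr45 and sap18sr45 lay above Col0, and asap lay below all others. Without PCMP-H11 the sums were 369 and 352 in Col0, 399 and 424 in sr45, 397 and 423 in sap18sr45 and 316 and 337 in asap. When the counts were divided by library totals without TMM, these sums without PCMP-H11 became 360 and 336 in Col0 and 345 and 362 in asap, which overlap, so the lower asap sum then rested on PCMP-H11.

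The classes differed in which genotype stood out. Class A was lowest in Col0 (32.7 and 30.3 CPM) and higher in every mutant library, from 39.3 in asap to 58.2 in sr45, with PCMP-A3 and PCMP-A1 as its main members. Class H was at 299 and 299 CPM in Col0, 345 and 362 in sr45, 334 and 345 in sap18sr45 and 236 and 251 in asap. Without PCMP-H11, class H was at 191 and 184 CPM in Col0 and 171 and 181 in asap. Divided by library totals, these were 187 and 176 in Col0 and 186 and 194 in asap, so the direction of the means turned (181 in Col0, 190 in asap). Class E was at 145 and 138 CPM in Col0, 122 and 141 in sr45, 143 and 138 in sap18sr45 and 100.0 and 117 in asap, and its first 3 genotypes overlapped. Divided by library totals, class E was at 118 and 135 in sr45 and 109 and 125 in asap, which overlap. These sums carry no test.

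**Figure D4:**
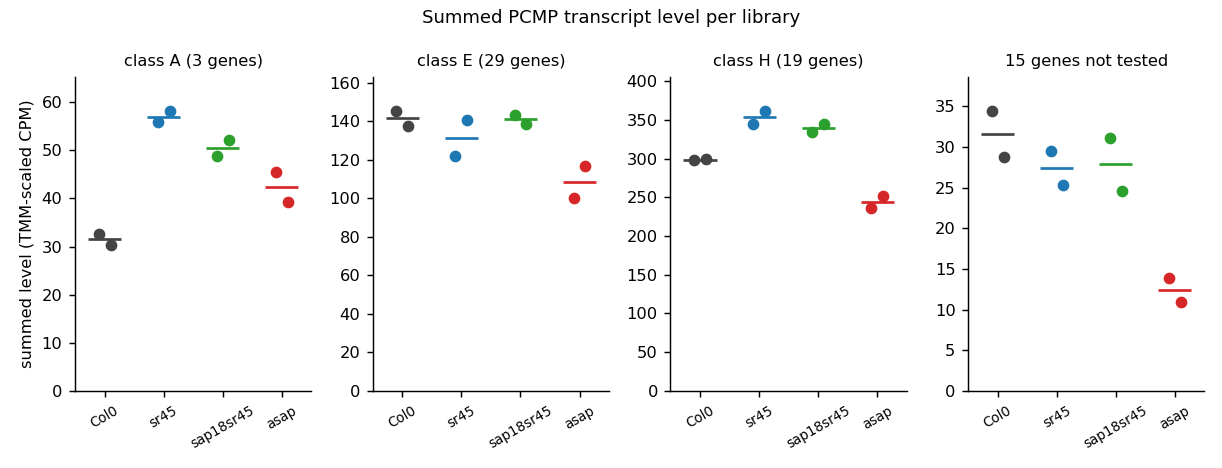
Summed level (TMM-scaled CPM, linear axes from 0) of the 3 class A, 29 class E and 19 class H genes and of the 15 genes that were not tested, with 1 point per library and a line at the mean of 2. On this scale class A is lowest in Col0, whereas class E, class H with PCMP-H11 included and the untested genes are lowest in asap.

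The 15 members not tested summed to 34.4 and 28.8 CPM in Col0, 29.5 and 25.3 in sr45, 31.1 and 24.6 in sap18sr45 and 13.9 and 11.0 in asap. A member high in both libraries of any genotype would have been tested. So a member high throughout asap could not be among them, and neither could one high throughout Col0. Over the 4275 loci of the table that were not tested, the sum moved the other way, to 1386 and 1407 CPM in asap from 928 and 883 in Col0. All 51 members had counts in Col0 replicate 1, the deepest library, while 7 and 10 had none in the asap libraries, against 0 to 2 in each other library. Over all 9536 loci with values, 3375 had none in Col0 replicate 1 and 3619 and 3590 had none in the asap libraries.

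PCMP-E55, PCMP-E63, PCMP-E65 and PCMP-H71, named because they had 0 counts in both asap libraries, had 12, 10, 2 and 17 counts in Col0. If the asap group is set to a floor of 3 counts in all, PCMP-H71 (AT1G74630) was at least 4.44-fold, PCMP-E55 (AT1G31430) at least 3.13-fold and PCMP-E63 (AT1G53600) at least 2.61-fold lower in asap than in Col0, counting error only. Of the 50 members with counts in both Col0 libraries, 3 (6.0%) were at 0 in both asap libraries, against 2.25% of all 5856 such loci. Of the 14 untested members with counts in both Col0 libraries, 3 (21.4%) were at 0 in both asap libraries, close to the 20.4% of all 617 such loci.

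Genes with related work in organelles were counted in the same way. Over all genes tested, 31.7% were called in sr45, 27.1% in sap18sr45 and 51.6% in asap. Of 54 tested PPR loci without a PCMP name, 2 rose and 3 fell in sr45 (9.26% called). In sap18sr45 0 rose and 3 fell (5.56%). In asap 5 rose and 13 fell (33.3%), with a median log2 change of -0.29. AT1G19720, listed as DYW7 and thus outside the name rule, was named after its values were seen. It fell in asap from 30.0 to 11.7 cRPKM in the means (log2 change -1.53, adjusted p = 2.1e-12). DYW1 (AT1G47580), likewise outside the rule, had means of 37.8 cRPKM in Col0, 52.5 in sr45 and 36.9 in asap. Of 14 tested mTERF genes, which act on transcription and RNA in organelles, 1 rose in sr45 (7.14%). In sap18sr45 0 were called by edgeR (1 at an unadjusted p under 0.05), and in asap 1 rose and 1 fell (14.3%). Of 11 tested factors of organellar transcription, editing and splicing, 5 rose and 1 fell in sr45 (54.5%). In sap18sr45 1 rose and 1 fell (18.2%), and in asap 0 rose and 3 fell (27.3%). MORF9, a partner of PPR editing factors in chloroplasts, was among the rises in sr45 (0.32, adjusted p = 0.0045), as were the sigma factor genes SIGA (0.59, adjusted p = 4.3e-08) and SIGB (0.25, adjusted p = 0.011). No test compared these lists with the PCMP genes. Their estimates were also tighter. In asap the median SE was 0.31 over the other PPR loci, 0.33 over the mTERF genes and 0.11 over the organelle factors. It was 0.55 over the PCMP members.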

How the data were processed

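The authors quantified reads with vast-tools on its araTha10 library (genome TAIR10) and deposited raw counts per gene, not normalized, and cRPKM, an RPKM value corrected for mappability. The libraries were made with a stranded mRNA kit. Their strand setting for counts: not given in the sources used here. The table was read in part: 9999 lines, of which 1 names no locus (at most 0.00281% of a library's counts, left out) and 462 of the 9998 loci carry no values. No column of sample values was left unused. RefSeq TAIR10.1 held 98.9% of the loci and gave products, gene structures and sequences. No coordinates are given, because the builds differ in name.

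Here the counts were modelled with edgeR 4.0.16 under R 4.3.3: filterByExpr (5261 genes kept), TMM scaling (factors 0.956 to 1.09), and 1 robust quasi-likelihood model over 8 libraries with 4 residual degrees of freedom and a common biological coefficient of variation of 8.2%. The 5 contrasts were each mutant against Col0, sap18sr45 against sr45, and asap against sap18sr45, tested 2-sided with Benjamini-Hochberg adjustment over all genes and a threshold of 0.05. Each SE was derived as |log2 change| / √F. The code was tested on simulated data. Bounds and intervals (95%, exact binomial on summed counts, floor of 3 counts) cover counting error only. Replicates differed by more than sampling noise in every genotype (chi-square per degree of freedom 1.75 to 7.22), so none were merged.

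Genes named by rule were SR45, the called members with the same direction in all library pairs (up to 5 rises and 5 falls per mutant, 3 and 3 per step), the 3 most abundant of each class, and tested members of known organellar role from a fixed list. Members, lists and rules were chosen with earlier results of these data known. Alternatives were DESeq2 1.42.0, limma 3.58.1 on log2(cRPKM + 0.5) and log2(cRPKM + 1), voom with quantile normalization, RLE size factors, no filter, a filter of 50 counts, only the 4 libraries compared, the replicate number as a block, each library left out, and the fold rule of the study (2-fold in every pair, 50 counts, cRPKM over 5).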

Additional observations from a re-analysis of the deposited data

How the results depend on the processing

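The calls of PCMP-A3 in sr45 and of PCMP-H11 in asap and against sap18sr45 were lost only under the fold rule of the study, which called 0 members in every comparison and left 2 or 3 members to test. The filter of 50 counts left 6 members, so the lower counts under both come with fewer genes tested. In sr45, 1 member was called with the filter of 50 counts and with DESeq2, and 1 to 3 without single libraries. In sap18sr45, 4 were called with only the 4 libraries compared and 0 to 2 without single libraries. In asap, 8 were called without a filter, 2 with the filter of 50 counts, 2 with limma at either pseudocount, 2 with DESeq2 and 1 with only the 4 libraries compared, and 2 to 10 without single libraries, the 10 without asap replicate 1. From sap18sr45 to asap, 1 was called with the filter of 50 counts and with only the 4 libraries compared, and 1 to 4 without single libraries. From sr45 to sap18sr45 the count was 0 throughout.

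The median log2 change over all tested members moved in sr45 to -0.035 without a filter, 0.47 with the filter of 50 counts, 0.042 and 0.033 with limma and 0.0094 with voom. In sr45, class E moved to -0.29 with voom, and class H was at 0.014 without a filter. In sap18sr45 it moved to 0.33 with the filter of 50 counts and -0.082 with voom, and in class E to -0.13 with voom, where class H was also at -0.13. In asap it moved to -0.45 without a filter, 0.014 and 0.0088 with limma and -0.55 with voom. Class E in asap moved to -0.48, -0.038, -0.029 and -0.61 (no filter, limma at 0.5 and 1, voom). Class H in asap was at -0.52 without a filter and with voom. It was above 0 with limma (0.024 and 0.017) and at -0.50 with the filter of 50 counts. Without single libraries the medians ran from -0.18 to 0.24 in sr45 (class E -0.37 to 0.23, class H 0.01 to 0.28), 0.033 to 0.28 in sap18sr45 (class E 0.037 to 0.32, class H -0.10 to 0.31) and -0.23 to -0.12 in asap (class E -0.33 to -0.17, class H -0.29 to -0.15). Limma on cRPKM, which lacks TMM, shifted the median of all genes in asap by 0.14 and 0.13 and the share of calls that were rises from 49.6% to 63.3% and 63.4%. The causes of the other shifts were not tested.

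Replicate numbers did not pair the libraries: correlations of same-numbered deviations lay between -0.036 and 0.043. With the replicate block, 2, 1, 4, 0 and 2 members were called in the 5 contrasts as listed above, and PCMP-H12 in asap was the call lost (adjusted p = 0.0521). Depth limits most members: 29 of 36 tested had a mean log2 CPM under 4, and 15 could not be tested.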
